A study of Mus musculus with 6 samples.

Results

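The complement components made by the liver were followed across livers of Nrg4 knockout and wild-type mice. The 9 genes named were C3, C6, C8a, C8b, C9, Cfb, Cfi, Masp1 and C1rb, and a probe set counted for a gene when its annotation gave that gene symbol alone. By this rule 8 of the 9 genes were found, with 12 probe sets, among 17097 genes with such a probe set. No probe set here carried the symbol C3, so C3 was not analysed here. For each gene the brightest of its probe sets, by the mean of all 6 arrays, gave the main value. All 8 passed the limit for dim probe sets and were among the 12475 genes tested.

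The livers came from 3 pools of Nrg4 knockout mice and 3 pools of wild-type mice, and each pool was hybridised to its own Affymetrix MG-430 PM array. Both genotypes were labelled C57BL/6, began a high-fat diet at 3 months of age, ate it for 8 weeks and were random-fed at harvest. Nrg4 encodes neuregulin 4, a secreted ligand of ErbB receptors that is enriched in brown fat. The labels state neither the number of mice in a pool nor their sex nor how the knockout allele was made, and all tests describe the spread between pools.

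Complement is a cascade of plasma proteases and pore-forming proteins, most of them made by hepatocytes. The classical route starts with the C1 complex, in which C1r and C1s are the proteases, and the lectin route starts with mannose-binding lectin, ficolins or collectins bound to MASP proteases. Both lead to convertases that cleave C3, and the alternative route amplifies that step through factor B. The terminal proteins, C6 to C9 among them, then assemble into the membrane attack complex. C8 consists of an alpha, a beta and a gamma chain, encoded by C8a, C8b and C8g.

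The stretches of DNA before the starts of C1rb, C9, C8b and C8a are shown because C1rb had the largest difference of the 8 genes and the other 3 encode pore-forming proteins that all had a lower knockout mean. They are RefSeq sequence of build GRCm38.p6, 5′ to 3′ on the strand of the gene, cut where the gene's own span begins. Capitals mark matches to motifs of 2 liver factor families. Those of C1rb are chr6:124570180-124570429 on the + strand, of C9 chr15:6445096-6445345 on the + strand, of C8b chr4:104766067-104766316 on the + strand and of C8a chr4:104876488-104876648 on the - strand.
C1rb: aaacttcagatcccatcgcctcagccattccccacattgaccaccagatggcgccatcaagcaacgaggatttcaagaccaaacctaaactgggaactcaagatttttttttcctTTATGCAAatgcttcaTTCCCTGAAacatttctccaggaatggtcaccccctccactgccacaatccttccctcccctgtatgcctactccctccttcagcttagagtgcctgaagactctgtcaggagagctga
C9: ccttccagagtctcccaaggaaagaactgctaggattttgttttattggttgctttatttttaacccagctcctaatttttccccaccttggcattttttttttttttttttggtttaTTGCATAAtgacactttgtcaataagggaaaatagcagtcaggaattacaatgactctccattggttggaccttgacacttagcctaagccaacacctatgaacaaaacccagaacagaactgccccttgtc
C8b: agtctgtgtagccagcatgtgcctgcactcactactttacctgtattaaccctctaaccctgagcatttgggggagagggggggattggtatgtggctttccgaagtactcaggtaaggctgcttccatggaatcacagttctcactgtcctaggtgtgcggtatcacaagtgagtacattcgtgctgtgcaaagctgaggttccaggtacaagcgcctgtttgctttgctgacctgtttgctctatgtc
C8a: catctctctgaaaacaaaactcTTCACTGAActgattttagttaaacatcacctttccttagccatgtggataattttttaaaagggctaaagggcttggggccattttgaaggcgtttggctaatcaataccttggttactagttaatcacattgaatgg

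The motifs were searched on both strands in the 250 bases before the start, in the 6 of the 9 genes with an entry. Of these bases, 161 for C8a and 107 for C6 lay before the gene's own span, and the rest within it. The C/EBP motif TTGCNNAA, of the factors that drive many acute phase genes, matched in C1rb and C9 among the genes with values, and in 9.56% of all 32851 promoters. The STAT motif TTCNNNGAA matched in C1rb and C8a and in 7.02% of all promoters. The match in C1rb also fits the letters TTCNNGGAA read from the other strand, which 4.06% of promoters held. The C8b and C6 windows held none of the 6 motifs searched. The motifs searched for HNF1, NF-kB and HNF4 (CAAAGTCCA) matched in none of the 6 windows and in 0.371%, 0.98% and 0.384% of all promoters. A match describes letters only and does not show that a factor binds there.

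Nrg4 itself served as the check of genotype, at 2.54 ± 0.11 in knockout and 4.84 ± 0.09 in wild-type arrays on the log2 scale (SD, n = 3 each, limma adjusted p = 4.75e-05). Its knockout mean was under the dim limit of 2.66, so Nrg4 was tested only through its wild-type values. Hepatocyte markers were bright, with means of 10.10 to 12.34 for the 10 tested. Their median log2 change was 0.04 and the log2 of their summed linear signal spanned 14.97 to 15.03 in knockout and 14.96 to 14.98 in wild-type arrays. Control probe sets of 18S ribosomal RNA were lower in all knockout arrays. The 3′ one spanned 6.67 to 6.89 in knockout and 7.45 to 7.73 in wild-type arrays, the middle one 5.74 to 6.59 and 7.92 to 8.14, and the 5′ one 5.61 to 6.71 and 8.12 to 8.80. For the Actb and Gapdh controls, the 5′ probe sets minus the 3′ ones averaged -1.31, -0.70 and -0.65 in the knockout arrays, against -0.95, -0.78 and -0.96 in the wild-type arrays. The part of these control signals in the results below was not tested.

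The comparison asked whether the liver's complement transcripts differ when Nrg4 is absent. None of the 8 components passed limma's test at adjusted p under 0.05, against 0.0401% of all genes tested. One component, C1rb, had an unadjusted p under 0.05 and a lower value in the knockout, against 2.18% of all genes in that direction and 9.55% in either direction. The other 7 had log2 changes between -0.19 and 0.06. Their 95% intervals reached no lower than -0.45, for C8a, and no higher than 0.39, for C6. Of the 8, 6 had a lower mean in the knockout, where 36.6% of all genes did. The median log2 change was -0.13 over the components and 0.045 over all genes tested. These livers are bulk tissue, in which fewer cells of a type and less RNA per cell cannot be told apart.

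**Figure D1:**
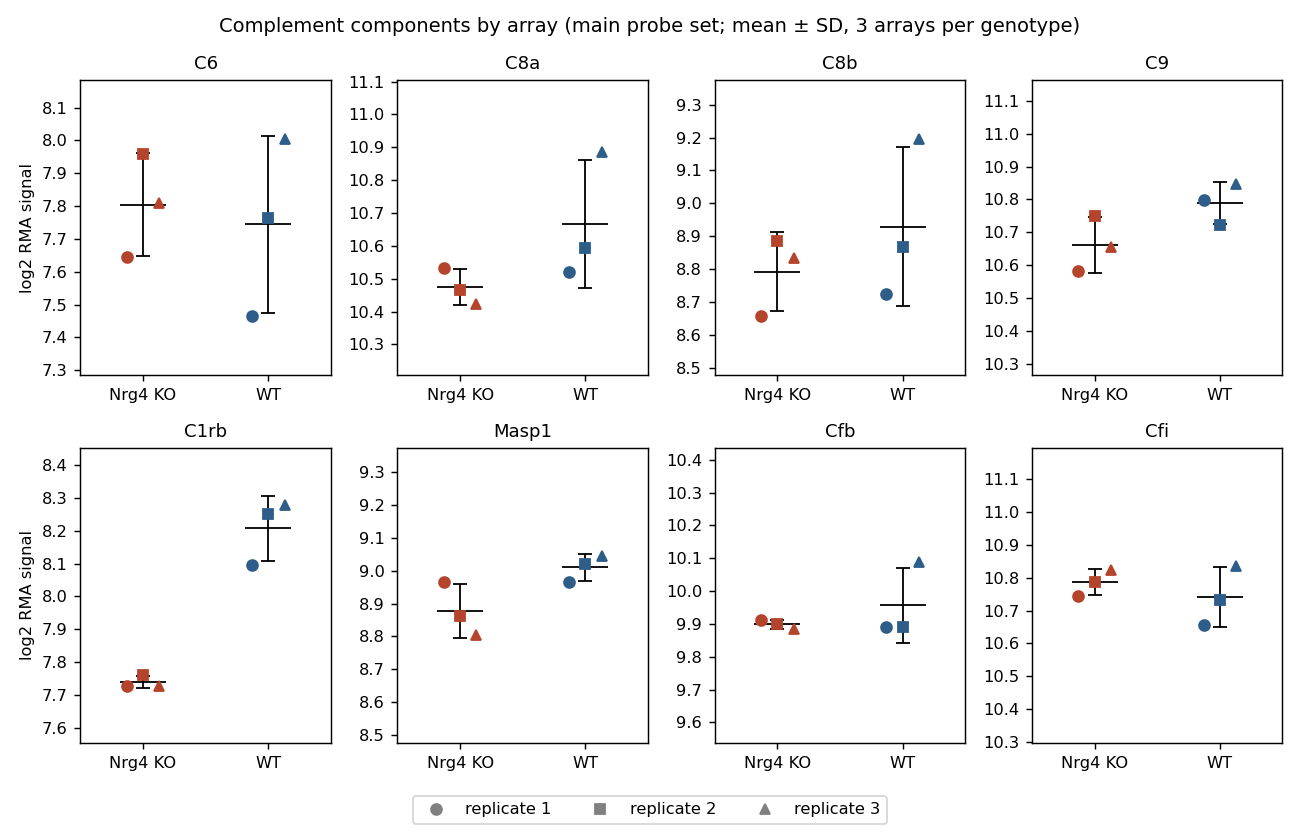
Log2 RMA signal of the main probe set of each of the 8 components (vertical axes, each spanning the same range) in Nrg4 knockout and wild-type arrays. Points are arrays with the replicate as marker shape, and bars are the mean and SD of 3 arrays. C1rb separates the genotypes, and wild-type replicate 3 holds the highest point in every panel.

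C1rb is 1 of 2 mouse genes for C1r, the protease that activates C1s in the classical route. It read 7.73, 7.76 and 7.73 in the knockout arrays, against 8.09, 8.25 and 8.28 in the wild-type arrays. All 3 knockout arrays lay below all 3 wild-type arrays, with a gap wider than the spread within either genotype. Its mean was 7.74 ± 0.02 in the knockout and 8.21 ± 0.10 in wild type (SD, n = 3 each), a 1.38-fold lower level. The log2 change was -0.47 (95% interval -0.67 to -0.27, limma adjusted p = 0.143), which did not pass. With a mean-variance trend in the prior it passed, with an adjusted p of 0.0375. Over all alternatives the log2 change lay between -0.52 and -0.43 and the limma adjusted p between 0.0375 and 0.502.

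C1rb lies between C1s1 and C1s2, and its probe set is of the kind named x_at, whose probes can match other similar sequences. Its signal may thus include transcripts of C1ra, the other C1r gene, and the probe set is uncertain as a measure of C1rb alone. The probe set of C1ra read 8.15, 8.06 and 8.13 in the knockout arrays, against 8.19, 8.19 and 8.27 in the wild-type arrays. These also did not overlap, and the log2 change was -0.10 (95% interval -0.29 to 0.08, limma adjusted p = 0.721). C1s1, the partner protease, had a log2 change of 0.03 (limma adjusted p = 0.957).

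The difference between the C1rb and C1ra changes was taken within each array. C1rb minus C1ra was -0.42, -0.30 and -0.40 in the knockout arrays and -0.10, 0.06 and 0.01 in the wild-type arrays. The change of C1rb minus that of C1ra was -0.37, and the arrays did not overlap. The exact two-sided permutation p was 0.1, the smallest that 3 against 3 arrays can give, and 0.167 adjusted over the 5 such pairs examined. These pairs were chosen after their values were seen.

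**Figure D2:**
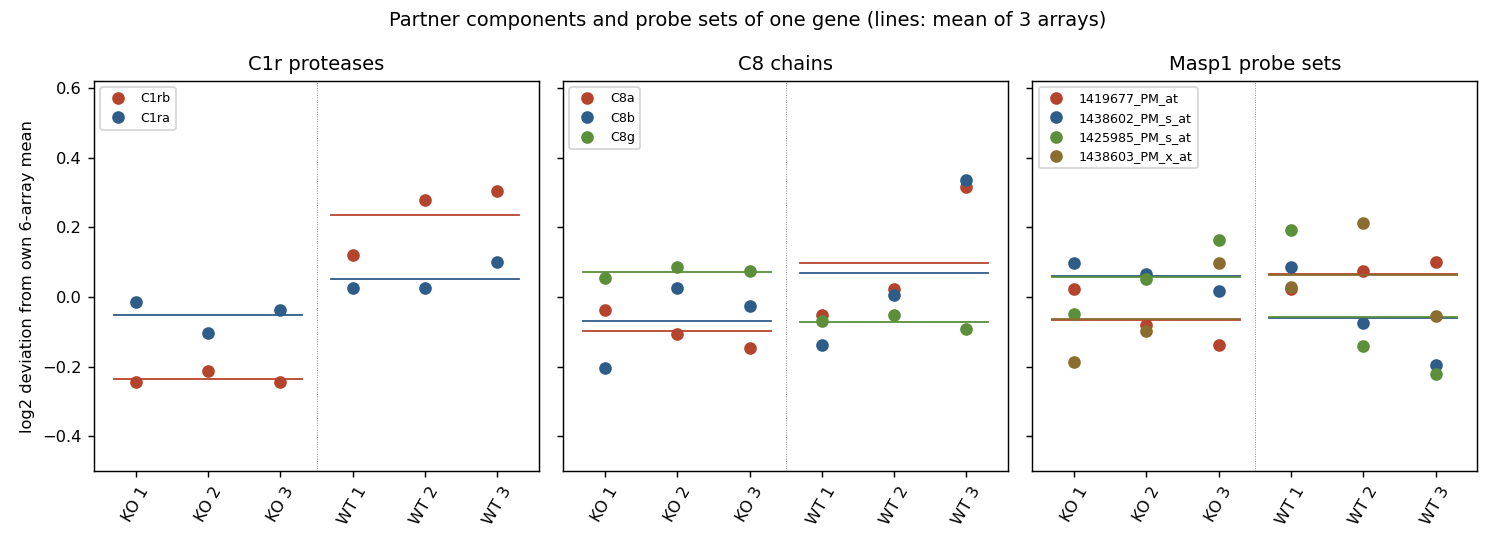
Log2 deviation of each array from the 6-array mean of the same probe set (vertical axis) for the C1r proteases, the C8 chains and the Masp1 probe sets above the limit for dim signal, with knockout arrays left of wild-type arrays and lines at the mean of 3 arrays. C1rb is separated further than C1ra, C8g runs opposite to C8a and C8b, and the Masp1 probe sets run in both directions.

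The terminal components C8a, C8b and C9 had lower means in the knockout and C6 a higher one. C8a, the pore-forming alpha chain of C8, read 10.53, 10.46 and 10.42 in the knockout arrays, against 10.52, 10.59 and 10.89 in the wild-type arrays. The genotypes overlapped, since knockout replicate 1 lay above wild-type replicate 1, and the log2 change was -0.19 (95% interval -0.45 to 0.06, limma adjusted p = 0.609). Without wild-type replicate 3, the highest array, it was -0.08.

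C8b, the beta chain and the gene next to C8a, read 8.66, 8.89 and 8.83 in the knockout arrays, against 8.72, 8.87 and 9.20 in the wild-type arrays. Only wild-type replicate 3 stood above the rest, and the log2 change of -0.14 (95% interval -0.44 to 0.16, limma adjusted p = 0.778) was -0.003 without it. The change of C8a minus that of C8b was -0.06 (exact permutation p = 0.6).

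C8g, the gamma chain, a lipocalin bound to the alpha chain, read 10.68, 10.71 and 10.70 in the knockout arrays, against 10.56, 10.57 and 10.53 in the wild-type arrays. All knockout arrays lay above all wild-type arrays, by little, and the log2 change was 0.14 (95% interval -0.04 to 0.32, limma adjusted p = 0.596). The change of C8a minus that of C8g was -0.34, with no overlap of arrays (exact permutation p = 0.1, adjusted 0.167), and that of C8b minus C8g was -0.28 (exact permutation p = 0.2, adjusted 0.25). Without wild-type replicate 3 these differences were -0.22 and -0.14.

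C9, which polymerises to form the pore, read 10.58, 10.75 and 10.65 in the knockout arrays, against 10.80, 10.72 and 10.85 in the wild-type arrays. Knockout replicate 2 lay within the wild-type range, and the log2 change was -0.13 (95% interval -0.33 to 0.07, limma adjusted p = 0.678). C6, which binds early in the assembly, read 7.65, 7.96 and 7.81 in the knockout arrays, against 7.465, 7.763 and 8.004 in the wild-type arrays. It had the widest spread of the 8, with an SD of 0.16 in the knockout and 0.27 in wild type, and the knockout values lay inside the wild-type range. Its log2 change of 0.06 (95% interval -0.27 to 0.39, limma adjusted p = 0.922) turned to -0.08 without wild-type replicate 1 and to -0.02 without knockout replicate 2. Hc, which encodes C5, had a log2 change of -0.003 (limma adjusted p = 0.994), and C7 was not analysed here.

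Masp1 encodes, through alternative splicing, proteins that include a protease of the lectin route. Its main probe set read 8.97, 8.86 and 8.80 in the knockout arrays, against 8.97, 9.02 and 9.04 in the wild-type arrays. The genotypes did not overlap only by the narrowest margin, with knockout replicate 1 at 8.9655 and wild-type replicate 1 at 8.9656. The log2 change was -0.13 (95% interval -0.33 to 0.06, limma adjusted p = 0.653). C1rb and Masp1 were thus the 2 of 8 components whose arrays did not overlap with the knockout lower, against 3.93% of all genes, and no component had the knockout arrays above all wild-type arrays, against 11.7% of all genes. In either direction the share of all genes without overlap was 15.6%.

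The 5 Masp1 probe sets ran in different directions. The second brightest read 7.10, 7.07 and 7.02 in the knockout arrays, against 7.09, 6.93 and 6.81 in the wild-type arrays, and the one after it 6.36, 6.46 and 6.57 against 6.60, 6.26 and 6.18. In both the knockout mean was higher, by 0.12 and 0.11 on the log2 scale. The fourth, faint at 2.99 to 3.39, had a log2 change of -0.13 and the fifth was dim. The brightest minus the second brightest was 1.86, 1.79 and 1.79 in the knockout arrays and 1.88, 2.09 and 2.24 in the wild-type arrays, so the change of the brightest minus that of the second was -0.25 (exact permutation p = 0.1, adjusted 0.167). With the mean of all its probe sets, in which the faint and dim ones count as much as the brightest, the log2 change of Masp1 was -0.001. Which transcripts of Masp1 each probe set reads was not examined here. Masp2, which encodes the lectin-route protease that cleaves C4 and C2, had a log2 change of 0.08 (limma adjusted p = 0.814).

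Cfb and Cfi had the smallest log2 changes of the 8 components. Cfb, the protease of the alternative convertase and the gene next to C2, read 9.91, 9.90 and 9.88 in the knockout arrays, against 9.89, 9.89 and 10.09 in the wild-type arrays. Wild-type replicate 3 stood above the other arrays, which lay close together, and the log2 change of -0.06 (95% interval -0.26 to 0.15, limma adjusted p = 0.867) was 0.007 without that array. Cfi, the protease that inactivates cleaved C3 and C4, read 10.75, 10.79 and 10.82 in the knockout arrays, against 10.66, 10.73 and 10.84 in the wild-type arrays. The knockout values lay inside the wild-type range, with a log2 change of 0.04 (95% interval -0.15 to 0.24, limma adjusted p = 0.901). It was 0.0016 without wild-type replicate 1 and 0.092 without wild-type replicate 3.

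All components had their highest value in wild-type replicate 3. It was the highest of the 6 arrays in 8 of 8 components, where this array was the highest in 10.9% of all genes tested, in 6 of 33 other complement genes and in 1 of 10 hepatocyte markers. Those 6 were C1ra, Mbl1, Hc, C4bp, Cpn1 and Clu, so the pattern was not particular to the components. Of the lists by role given below, only the soluble inhibitors had their highest mean deviation in this array, at 0.09. The mean deviation of the components from their own 6-array means was -0.10, -0.02 and -0.07 in the knockout arrays, against -0.05, 0.04 and 0.21 in the wild-type arrays. Wild-type replicate 1 thus lay among the knockout arrays. Without wild-type replicate 3 the median log2 change of the components was -0.04, against -0.13 with it, and without knockout replicate 1 it was -0.08.

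Lists of sex-biased liver genes had their most distant mean in wild-type replicate 3 too, though not in every gene. The mean deviation of 7 male-biased genes, such as Slco1a1 and Hsd3b5, was -0.05, 0.01 and -0.08 in the knockout arrays, against -0.17, 0.06 and 0.23 in the wild-type arrays. That of 3 female-biased genes, such as Cyp2b9, was 0.56, 0.17 and 0.58 in the knockout arrays, against 0.13, -0.27 and -1.16 in the wild-type arrays. Wild-type replicate 3 was the highest array in 4 of the 7 male-biased genes and not in Cyp2d9, where it was the lowest, nor in Elovl3 and Selenbp2. Among the female-biased genes Cyp2b9 carried most of the low mean, at 2.71 in that array, while Acot3, at 8.58, lay above its own mean. Cyp3a41a, the third, was under the dim limit of 2.66 in wild-type replicates 2 and 3, at 2.55 and 2.16. The other 6 female-biased genes listed were dim or had no probe set here. The part of these genes' array differences in the complement results was not tested.

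**Figure D3:**
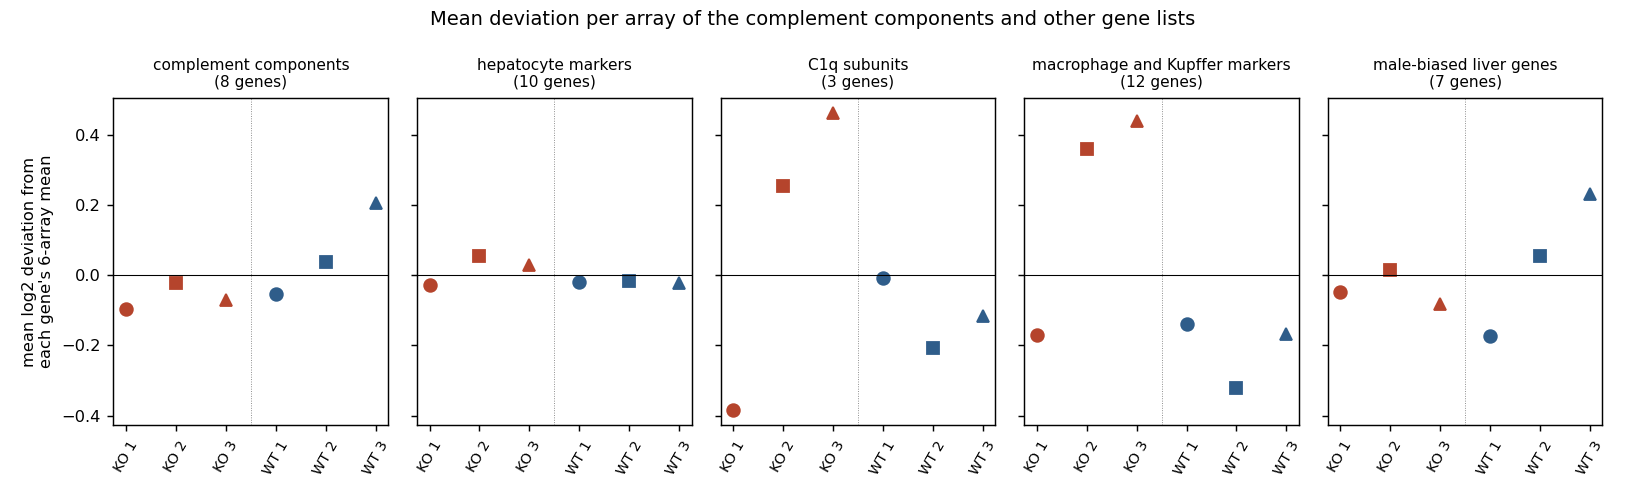
Mean log2 deviation from each gene's 6-array mean (vertical axis) per array, with knockout arrays left of wild-type arrays, for the 8 complement components, hepatocyte markers, C1q subunits, macrophage and Kupffer markers and male-biased liver genes. The components and the male-biased genes are highest in wild-type replicate 3, while C1q and the macrophage markers are highest in knockout replicates 2 and 3.

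The rest of the complement system was read from a list of 45 other genes, of which 33 were tested, 4 were dim and 8 had no probe set here. None passed limma's test over all genes, and 4 had an unadjusted p under 0.05, all higher in the knockout, against 7.37% of all genes in that direction. In all 23 of 33 were higher by mean in the knockout, and the median log2 change was 0.10. A lower mean was found in 10 of 33, where 36.6% of all genes had one. The arrays did not overlap in 7 with the knockout higher, against 11.7% of all genes, and in 3 with the knockout lower, against 3.93%. The 4 with the smallest p were Colec11 at 0.44, Cd93 at 0.44, Colec10 at 0.28 and C1qa at 0.32, with limma adjusted p-values between 0.336 and 0.517. Colec11 and Colec10 encode collectins, pattern-recognition proteins of the lectin route. Another probe set of Cd93, a receptor of endothelium and myeloid cells, had a log2 change of -0.23.

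By role, the knockout mean was higher in 6 of 7 classical genes, 5 of 7 lectin genes and 5 of 5 receptors. It was higher in 3 of 4 membrane inhibitors and 2 of 7 soluble inhibitors, and lower in 36.6% of all genes. The median log2 changes were 0.15, 0.08, 0.18, 0.13 and -0.01 in these lists. Mbl1, a mannose-binding lectin, stood at -0.20 (limma adjusted p = 0.523), with no overlap between genotypes. C4b stood at 0.10 and C2 at 0.17, with limma adjusted p-values of 0.765 and 0.708. Cfd was not analysed here.

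**Figure D4:**
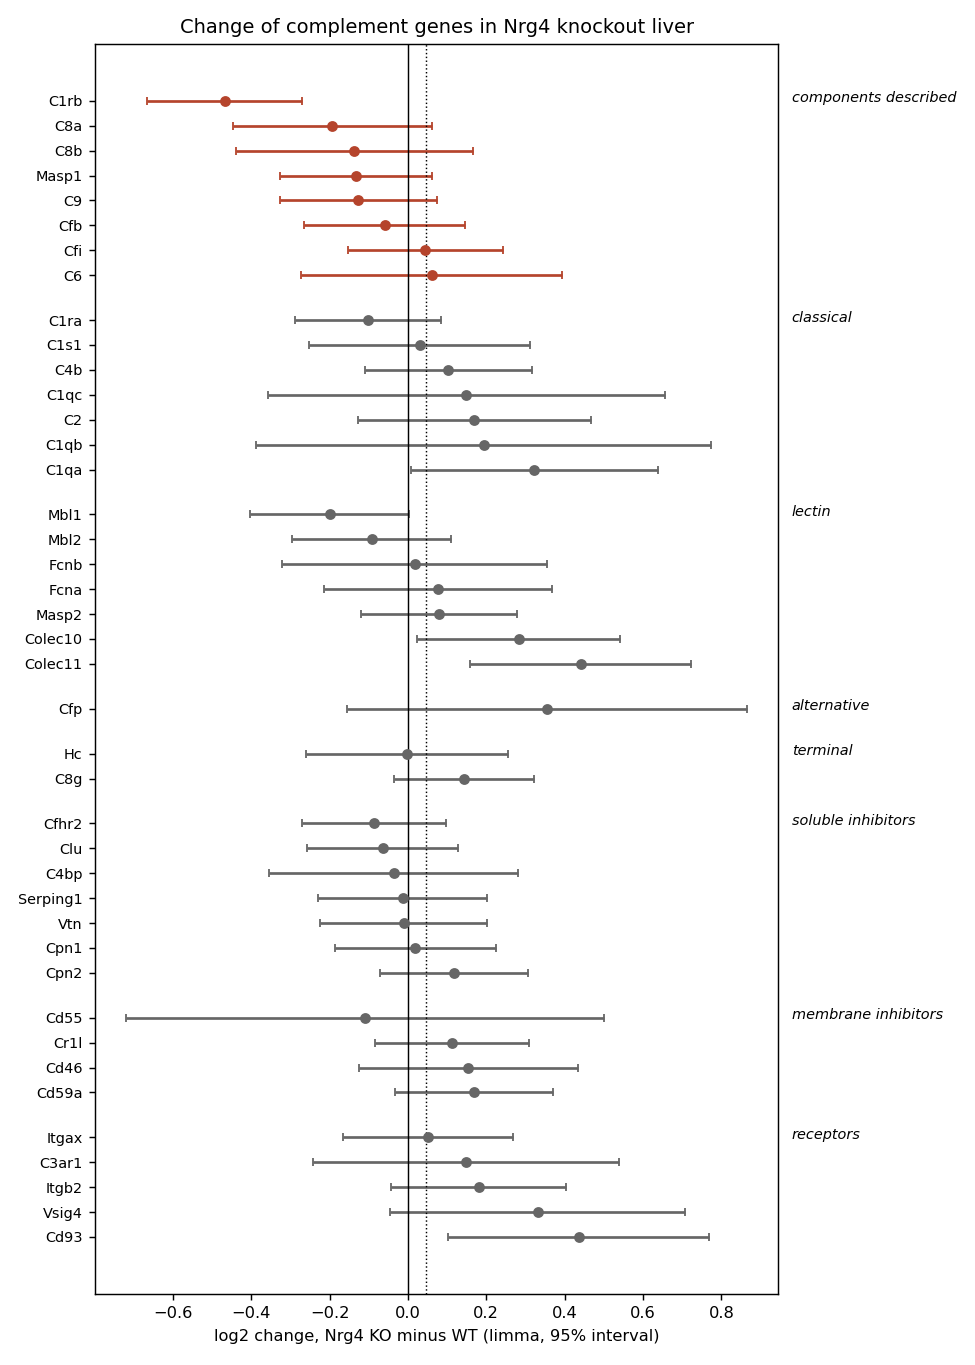
Log2 change in Nrg4 knockout over wild type (horizontal axis, limma estimate with 95% interval, 3 arrays per genotype) for the 8 components (red) and 33 other complement genes (grey) by role. The solid line marks 0 and the dotted line the median of all genes tested, 0.045. C1rb is the only component whose interval lies wholly below 0.

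The C1q genes, which are expressed by macrophages rather than hepatocytes, differed among the knockout arrays. The mean deviation of C1qa, C1qb and C1qc was -0.39, 0.25 and 0.46 in the knockout arrays, against -0.01, -0.21 and -0.12 in the wild-type arrays. Macrophage and Kupffer markers were also low in knockout replicate 1, at -0.17, 0.36 and 0.44 in the knockout arrays, against -0.14, -0.32 and -0.17 in the wild-type arrays. All 12 such markers were higher by mean in the knockout, where 36.6% of all genes were lower, and the median log2 change was 0.43. The arrays did not overlap in 4 of the 12, with the knockout higher, against 11.7% of all genes. Adgre1, at 0.64, had the smallest p and Marco, at 0.90, the largest change, and none passed over all genes. The log2 of the summed linear signal of these markers spanned 10.83 to 11.26 in knockout and 10.67 to 10.82 in wild-type arrays. No marker was under the dim limit by its mean over all 6 arrays. Timd4, however, was under that limit of 2.661 by its wild-type mean of 2.657, and was tested only through its knockout mean of 3.18. The part of these markers in the C1q values was not tested.

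Genes listed as regulators of complement transcription in liver showed no call either. The list mixes transcription factors with receptors and inhibitors, so its members share no expected direction. Of 17 regulators listed, 15 were tested, 11 with a higher and 4 with a lower mean in the knockout. A lower mean was found in 36.6% of all genes, and the median log2 change of the list was 0.04. Cebpd, a C/EBP factor induced in the acute phase, stood at 0.35, Stat3, which carries the interleukin-6 signal, at 0.20, and Il6st, the shared chain of that receptor, at 0.15. With limma the adjusted p of these genes was between 0.412 and 0.654.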

How the data were processed

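Liver RNA extracted with Trizol was labelled from 250 ng with a 3′ IVT kit and hybridised, per the labels' protocols. The deposited values are log2 RMA signals (background subtraction, quantile normalization and probe summary), made with affy, RMA and limma per the submitters' processing notes, which as used here give neither versions nor a build. RMA makes array medians alike (2.98 to 3.04), so a shift of most genes would be reduced. Of 45141 probe sets, 28898 had 1 gene symbol, 551 several and 15588 none here, and 104 were controls.

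Genes were called dim and not tested when the mean of their main probe set was under 2.66, the 40th percentile over all probe sets. The genotypes were tested two-sided in R 4.3.3 with lmFit and eBayes of limma 3.58.1, at the default prior, over all 12475 genes, with Benjamini-Hochberg adjustment and a threshold of 0.05. The test was also run on simulated data with independent normal noise for each gene and array. Shifts that many genes of an array share were not simulated, so that run cannot speak to them. Exact permutation tests used scipy 1.17.1. Of the genes tested, 12403 matched RefSeq assembly GRCm38.p6 by gene number, which was used for neighbours. The number of arrays limits the precision.

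The members, lists, tests and alternatives were chosen with earlier results of these data known. The genes named are all members, their direct partners, the 4 other complement genes and the first genes of each further list by unadjusted p, and the 5 genes of most like pattern. The other genes named were chosen after their values were seen. Lists covered other complement genes, regulators of complement transcription, and markers of macrophages, endothelium, hepatocytes, stellate cells and matrix, and sex-biased liver genes. Same-numbered replicates did not deviate together (correlations of -0.15, 0.03 and -0.01), so the replicate number was used only in an alternative. Further alternatives were another scaling, filter, prior or weighting, the mean of all probe sets and leaving out each array.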

Additional observations from a re-analysis of the deposited data

How the results depend on the processing

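No component was called under 14 of 15 alternatives, and with a mean-variance trend 1 was, C1rb, whose log2 change does not depend on the prior. In each of the 15 runs 1 component had an unadjusted p under 0.05. The median log2 change over the components stayed below 0, between -0.15 and -0.04. Components with arrays that did not overlap numbered 1 with the mean of all probe sets, because Masp1 then overlapped. They numbered 3 with values centred on array medians, and 2 to 3 when 1 array was left out. C6 lay between -0.079 and 0.19 (-0.017 without knockout replicate 2) and Cfb between -0.092 and 0.0067 when 1 array was left out, and both thus changed direction; the cause was not tested. The other 6 components kept their direction in all 15 runs. Over all genes, 5 passed, against 8 with quantile normalization again, 3 with the filter at the 60th percentile, 29 with the variance trend, 50 with array weights, 3 with the mean of all probe sets, 2 with the replicate block, and 1 to 19 with 1 array left out; the causes were not tested. The block changed no call of a component. With 3 arrays per genotype, small changes such as those of the terminal components could not be told from no change.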

Other observations

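The 5 genes outside the components whose 6 values, taken about their own mean, lay closest to the mean profile of the components were Marchf6, Tmem132a, Kctd5, Erc1 and Arhgef16. Their root mean square distance from that profile was 0.024 to 0.034 on the log2 scale over 6 arrays, against 0.050 to 0.18 for the components themselves. These genes were picked from all genes tested for this closeness, so their smaller distances follow from the choice. That wild-type replicate 3 was the highest array in each of them, as in the components, follows from it too. Tmem132a, Kctd5 and Arhgef16 were faint, with knockout means of 3.59, 3.36 and 3.38. The likeness is a description with no test.

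Other cell markers were also read in these livers. Endothelial markers had a higher mean in the knockout in 8 of 10 genes tested, with a median log2 change of 0.28, and those with the smallest p were Lyve1 at 1.29, Cdh5 at 0.38 and Pecam1 at 0.33. Stellate cell and matrix markers were higher in 9 of 9 tested, with a median of 0.23. Those with the smallest p were Col3a1 at 0.80, Vim at 0.47 and Dcn at 0.40. Of all genes tested, 36.6% had a lower mean in the knockout. No gene of either list passed limma's test over all genes, where the lowest adjusted p was 0.0742, for Lyve1. The male-biased genes had a median log2 change of -0.01, with Slco1a1 at -0.50, Hsd3b5 at -0.41 and Selenbp2 at 0.25. The female-biased genes had a median of 0.68, with Acot3 at -0.65, Cyp2b9 at 2.58 and Cyp3a41a at 0.68, and none of these passed. That median is the value of Cyp3a41a, whose mean was 3.23 in knockout and 2.56 in wild-type arrays. The wild-type mean was under the dim limit of 2.66, so Cyp3a41a was tested only through its knockout values. Of the hepatocyte markers, Fgb stood at 0.11, Apoa2 at 0.09 and Fga at 0.07. Folr2 and Mpeg1 followed Adgre1 by p among macrophage markers, at 0.41 and 0.45.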
